A study of Mus musculus with 4 samples.

Results

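CTCF sites that ranked lower at day 9 and day 28 than at day 0 were followed through 3 stages of osteogenic differentiation. CTCF binds DNA through an array of zinc fingers; it sits at insulators and, together with cohesin, holds the bases of chromatin loops. Most of its sites are known to be bound in many cell types, and the sites that differ between cell types are mostly the weaker ones. Chromatin immunoprecipitation with sequencing (ChIP-seq) reads such binding as peaks of DNA recovered with an antibody to the protein. The cells were MC3T3-E1 subclone 4, a single clone of a mouse line grown from calvaria (labelled C57BL/6), at passages 28 to 31. They were taken at day 0 (proliferating preosteoblasts), day 9 (depositing matrix) and day 28 (mineralizing). Differentiation medium held 280 µM ascorbic acid, which collagen assembly needs, and 10 mM beta-glycerophosphate, a phosphate donor for mineral. Each day was represented by 1 peak list, so no difference between days has a replicate error and no p-value is given. Peak lists hold no expression values, so the labelled stages could not be checked against osteoblast marker genes.

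The falling regions were chosen by the scores themselves. Peaks of the 3 lists that shared at least 1 bp were merged into union regions, of which 68920 lay on chromosomes 1 to 19 (70742 with chromosomes X and Y). In 34524 of these, each list held exactly 1 peak, and 22972 of them had a score under 3100, where the caller's score saturates, in all 3 lists. These 22972 are called ranked regions. The score is taken to be −10 log10 of the peak's p-value; it grows with sequencing depth, so each list's scores were turned into percentiles (0 to 100) over the ranked regions. A region counted as falling when its percentile was at least 25 points lower at day 9 and at day 28 than at day 0. This held for 1773 regions, 7.72% of the ranked regions. The fall at day 9 was met by 2858 regions (12.4%) and that at day 28 by 3469 (15.1%). Both falls are measured from the same day 0 list, so they are not independent of each other. The opposite move, a rise of at least 25 points at both later days, was made by 1855 regions (8.08%). All of these shares follow from the rule and describe it.

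A region can fall by 25 points only from a day 0 percentile of at least 25. There were 17229 such regions, called eligible here, and the falling regions made up 10.3% of them (95% Wilson interval 9.85 to 10.8). Wilson intervals here cover counting error only, and because falling regions lie near each other they are too narrow. Which regions fall depended on the ranking. When saturated regions were kept and tied at 3100, 1255 regions met the rule, and 682 of the 1773 were among them. With percentiles taken over all peaks of each list, 4764 regions met it, 1745 of the 1773 among them. A fall of 35 points was made by 827.

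Among the ranked regions, most falling regions stood in the upper part at day 0 and in the lower part later. Sites saturated at day 0, 11165 of the 34524 regions with 1 peak per list, scored higher and were left out of the ranks. Day 0 scores had a median of 1631 (quartiles 1137 and 2229). By day 9 the median score was 190.9 (136.7 and 287.4), and by day 28 it was 236.2 (160.2 and 376.6). In the other 15456 eligible regions the medians were 1294, 497.02 and 780.6. Since depth may differ between the lists, only the position within a list can be set side by side. The median percentile of the falling regions went from 71.6 (day 0) to 26.4 (day 9) and 24.1 (day 28), while that of the other eligible regions went from 61.2 to 64.5 and 63.8. The median change was -38.5 points at day 9 and -40.9 points at day 28. A fall of at least 50 points at both days was made by 236 members (13.3%) and one of at least 75 points by 12.

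**Figure D1:**
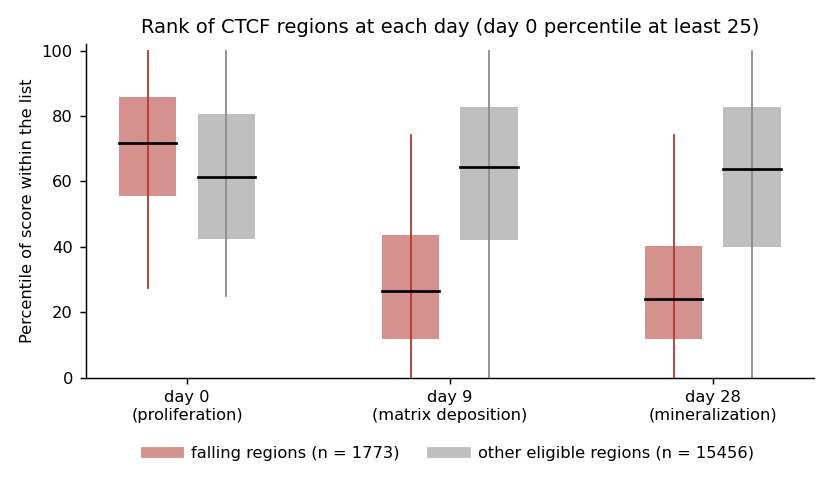
Percentile of the peak score within each list (vertical axis, 0 to 100) at each day for the 1773 falling regions (red) and the other 15456 eligible regions (grey); boxes span the quartiles, black lines are medians and thin lines run from the lowest to the highest region. The red boxes drop from a median of 71.6 to 26.4 and 24.1, a drop the rule itself sets, while the grey medians stay between 61.2 and 64.5.

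The falling regions were chosen to be low at both later days, which removes sites that regained their rank by day 28 and limits the difference between day 28 and day 9 in advance. It is given as a description of the members. Its median was -1.63 percentile points (quartiles -10.3 and 5.85) over the falling regions and -0.636 (-10.4 and 8.61) over the other eligible regions. The days lay within 10 points of each other in 1029 falling regions (58.04%, 55.7 to 60.3) and in 51.9% (51.1 to 52.7) of the others. A regain of at least 25 points by day 28 was seen in 44 members (2.48%), and a further loss of that size in 97 (5.47%). In the other eligible regions these shares were 5.40% and 6.39%.

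**Figure D2:**
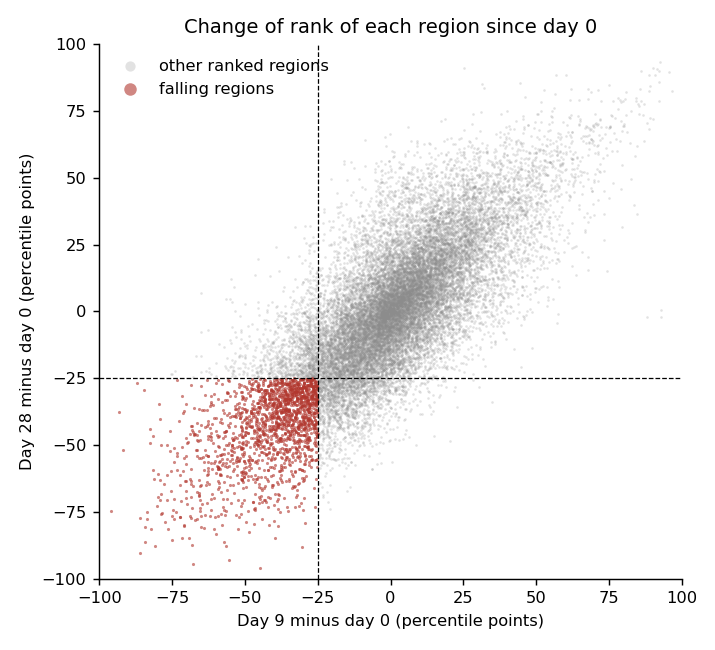
Each of the 22972 ranked regions by its change of percentile from day 0 to day 9 (horizontal axis) and to day 28 (vertical axis), in percentile points; dashed lines mark -25 and the falling regions are red. Both axes subtract the same day 0 value, which alone draws points along the diagonal.

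Many falling sites came close to dropping out of the later lists. The lowest deposited score was 100. At day 9, 939 falling regions (52.96%, 50.6 to 55.3) scored under 200, and at day 28, 712 (40.2%, 37.9 to 42.5) did. Both later scores were under 200 in 598 (33.7%, 31.6 to 35.96). In the other eligible regions these shares were 13.5%, 8.24% and 4.72%, and over all ranked regions 28.3%, 18.5% and 14.03%. Low later scores of the falling regions are part of what the rule selects.

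The 10 members with the largest smaller fall (the lesser of their falls at day 9 and day 28) went from the upper part of the day 0 ranks to the bottom of both later lists. Coordinates are of the mouse build mm9, counted from 1; the gene table at hand is of another build, so no gene, exon or promoter is assigned, and no sequence is shown. The region on chromosome 8 at 121719455 to 121720123 had a day 0 score of 2798.55, followed by 129.8 (day 9) and 127.1 (day 28). Its percentiles were 95.6, 9.59 and 5.34, the largest pair of falls by this measure, and the nearest other union region, found at day 0 alone, lay 24.1 kb away. The region on chromosome 3 at 154315774 to 154316438 scored 2709, 130.5 and 139.6, with percentiles of 94.2, 9.83 and 7.93. That on chromosome 5 at 127715197 to 127716202 had the lowest later scores of the first 3 (2122 at day 0, 103.8 and 111.8 later), and its peak narrowed from 1006 bp to 334 bp at day 9 and 547 bp at day 28. These later values sit just above the floor of the lists.

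Next came a site with no other CTCF region within 50 kb, on chromosome 4 at 66184422 to 66184980. Its score of 2417 (day 0) was followed by 126.2 (day 9) and 108.2 (day 28), and its nearest neighbour lay 122 kb away. On chromosome 7, the region at 47327757 to 47328368 scored 2346, 111.6 and 136.6, and its peak narrowed from 560 bp to 221 bp at day 9. The other 5 started at 14389258 on chromosome 5, at 42596427 on chromosome 9, at 38560415 on chromosome 7, at 48488213 on chromosome 19 and at 36591661 on chromosome 2. Their day 0 percentiles were 82.5 to 90.4, and their later ones 2.95 to 12.3 at day 9 and 6.46 to 12.8 at day 28. Of all 10, 4 had no other union region within 50 kb.

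The 3 members with the highest day 0 percentiles were not among these 10. The region on chromosome 6 at 41572578 to 41573198 scored 3095.89 at day 0, just under saturation, and 356.03 and 357.4 later (percentiles 99.98, 52.1 and 38.4). The region on chromosome 19 at 16058831 to 16060055 scored 3091.19, 512.95 and 976.1. It still stood at the 65.7 and 70.5 percentile, in the upper part of the ranked regions at both later days. On chromosome 10, the region at 40735238 to 40736155 scored 3091.05, 378.8 and 531.1. At the other end, the lowest day 0 starts were percentiles 27.3 (chromosome 10 at 98725391), 29.2 (chromosome 5 at 102424449) and 29.3 (chromosome 11 at 53456240), where a fall of 25 points leaves only the bottom of the list. The first of these dropped from a score of 569.4 to 100.6 and 111.8.

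Near the threshold the choice is a matter of hundredths of a point. Just inside stood the regions starting at 84866887 of chromosome 15 (-25.01 at day 9, -45.9 at day 28), 98725391 of chromosome 10 (-27.1 and -25.06) and 101670690 of chromosome 1 (-32.97 and -25.07). Just outside stood those starting at 113199938 of chromosome 11 (-24.999 and -28.2), 106431248 of chromosome 5 (-36.1 and -24.99) and 5516339 of chromosome 19 (-56.1 and -24.97).

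The share of falling regions by day 0 rank is set in part by the rule, since a higher start leaves more room for a fall. It was 3.02% (2.50 to 3.64) of regions with a day 0 percentile of 25 to 40, 9.32% at 40 to 55 and 12.2% at 55 to 70. From 70 to 85 and from 85 to 100 the shares were 13.5% (12.4 to 14.7) and 13.4% (12.3 to 14.6). Nothing is read from this trend. Regions saturated at day 0 were not ranked.

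The peaks of falling sites also became narrower. A peak's width comes from the same reads as its score, so this describes the members and does not support their choice. The median day 0 width was 592 bp in the falling regions and 608 bp in the other eligible regions. At day 9 the medians were 430 and 506 bp, and at day 28 they were 569 and 701 bp. The median ratio of day 9 to day 0 width was 0.703 (order-statistic interval 0.692 to 0.716) in the falling regions and 0.832 (0.828 to 0.835) in the others. For day 28 these ratios were 0.931 (0.919 to 0.942) and 1.11 (1.11 to 1.12). The day 28 peak was narrower than the day 0 peak in 63.001% of the falling regions and in 30.998% of the others. The narrowing held in each band of day 0 rank: the median day 9 ratio ran from 0.665 to 0.725 in falling and from 0.817 to 0.847 in other regions.

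The later peaks lay close to the day 0 peak. Regions were built from overlapping peaks, so this closeness is set in part by the merging. The centres of the day 0 and day 9 peaks were a median of 38 bp apart in the falling regions and 37 bp in the other eligible regions. For day 28 the medians were 38 and 40 bp. The day 9 peak lay wholly inside the day 0 peak in 1447 falling regions (81.6%, 79.7 to 83.3) and in 59.2% (58.4 to 60.0) of the others. The day 28 peak did so in 34.7% (32.6 to 36.99) and 13.1% (12.6 to 13.7). With centres displaced about equally, a narrower later peak lies inside the day 0 peak more often, so these shares restate the narrowing.

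Falling sites were over-represented among CTCF sites that stood alone. The crowding of a site, meaning the number of other union regions with a centre within 50 kb, was not used by the rule. Of the 999 eligible regions with none, called isolated here, 188 fell (18.8%, 16.5 to 21.4). With 1 neighbour the share was 14.1% (12.4 to 15.9), with 2 it was 10.5% (9.16 to 12.002), and with 3 or 4 it was 9.41% (8.52 to 10.4). It was lowest with 5 or 6 neighbours (8.33%, 7.44 to 9.32) and 10.2% (9.10 to 11.4) with 10 or more. Over all eligible regions with a neighbour, 9.77% (9.32 to 10.2) fell. Rising regions made up 11.5% (9.64 to 13.7) of the isolated regions with room to rise and 7.77% to 12.7% of the other classes; whether the 2 patterns differ was not tested. When peaks scoring under 200 were left out, the contrast shrank to 17.3% (15.01 to 19.8) of isolated against 14.02% (13.4 to 14.7) of neighboured regions. Whether reads map uniquely around isolated sites, or in the sparse stretches named further on, was not analysed here, and its part in these shares was not tested.

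**Figure D3:**
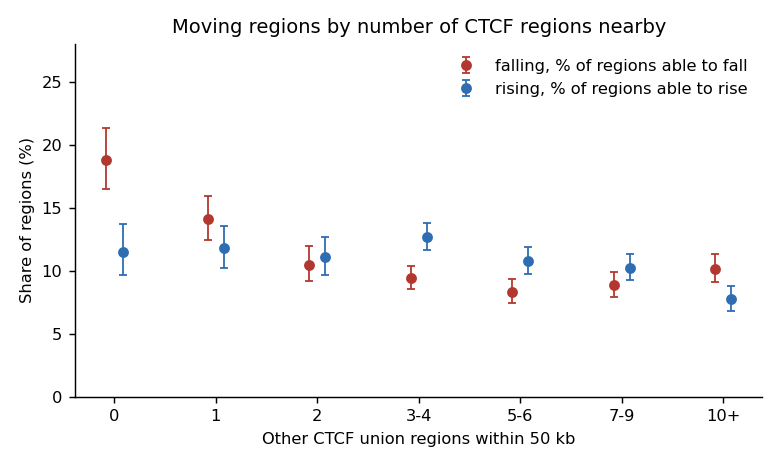
Share of regions (vertical axis, %) that fell, of the regions able to fall (red), and that rose, of those able to rise (blue), by the number of other CTCF union regions within 50 kb (horizontal axis); bars are 95% Wilson intervals. The red share is highest at 0 neighbours (18.8%) and between 8.33% and 10.5% from 2 neighbours on, while the blue share at 0 neighbours is 11.5%.

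The contrast in percentage points was wider at higher day 0 ranks. The rule leaves less room for a fall from a low start, so this widening is set in part by the rule. In the band of day 0 percentiles from 85 to 100, 61 of 204 isolated regions fell (29.9%, 24.04 to 36.5), against 12.4% (11.3 to 13.5) of those with a neighbour. From 70 to 85 the shares were 24.3% (19.1 to 30.4) and 12.8%, and from 55 to 70 they were 20.2% (15.2 to 26.3) and 11.7%. From 40 to 55 they were 12.7% (8.85 to 18.02) and 9.10%, and from 25 to 40 4.57% (2.33 to 8.76) and 2.93%, with intervals that overlap. The median score of the isolated members went from 1786 (day 0) to 181.1 (day 9) and 232.9 (day 28). Their median change was -44.1 points at day 9 and -46.4 points at day 28, against -37.8 and -40.2 points in the members with a neighbour. Isolated members also started higher, at a median day 0 percentile of 75.6 against 71.1, which leaves more room for a fall. The size of the fall is part of what the rule selects, so this difference is a description. Isolated sites that did not fall had narrow day 0 peaks too (median 526 bp, against 528.5 bp in isolated members), so day 0 width did not set the isolated members apart from them.

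The site nearest to a falling site was often one found at day 0 alone. Day 0-only regions were the nearest union region of 648 members (36.5%, 34.3 to 38.8) and of 27.4% (26.7 to 28.1) of the other eligible regions. For rising regions the share was 24.7% (22.8 to 26.8). Regions found in all 3 lists were nearest in 50.9% (48.5 to 53.2) of the members and 56.4% (55.6 to 57.1) of the other eligible regions. Regions found at day 28 alone were nearest in 1.18% (0.776 to 1.80) and 2.64% (2.40 to 2.90). The difference in day 0-only neighbours was present in each band of day 0 rank, with 31.7% to 38.7% for members and 26.4% to 28.1% for the others. With each list limited to its 42774 highest-scoring peaks, which removes the weaker day 0 peaks, the shares were 14.03% and 7.73%. Without peaks scoring under 200 the contrast shrank to 31.5% (29.3 to 33.7) and 27.6% (26.8 to 28.5). The neighbours come from the same 3 libraries as the members, so a lower local signal in the later libraries would enter both counts; its part was not tested.

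A falling site was more often followed by another falling site than the other eligible regions were, though most members were not. The next eligible region along the chromosome also fell for 302 of 1772 members (17.04%, 15.4 to 18.9) and for 9.52% (9.06 to 9.99) of the other eligible regions. The contrast was there when the next region was 10 to 50 kb away (16.5% and 8.96%), 50 to 200 kb away (16.3% and 8.91%) and 200 kb or more away (21.6% and 12.96%). Under 10 kb it was 11.8% (8.16 to 16.9) and 8.54% (7.46 to 9.75), with overlapping intervals. With percentiles over all peaks it was 26.6% and 20.6%. Most members still stood alone in this sense: 1251 had no falling eligible region next to them, and 522 (29.4%) lay in runs of 2 or more. There were 172 runs of 2, 29 of 3 and 10 of 4, and 9 longer ones.

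Ranked regions around a falling site, other members among them, moved down by a median of a few points. The ranked regions directly before and after a member had a median change of -5.09 points at day 9 and -6.40 at day 28, and 15.4% of them were members. At 5 steps the medians were -1.81 and -2.65, and at 20 steps -1.42 and -1.71, with 8.60% members. Around other eligible regions the medians lay between -0.139 and 0.165 at day 9 and between -0.727 and -0.344 at day 28. Around rising regions they were positive at each step, from 4.15 down to 0.919 at day 9. The medians of the neighbours thus lay in the direction of the site in their midst, at a small part of its own change. They include neighbours that themselves fell or rose by the rule, which restates the adjacency in part. Around other eligible regions, 7.63% of the direct neighbours were members. No median without such neighbours was taken.

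**Figure D4:**
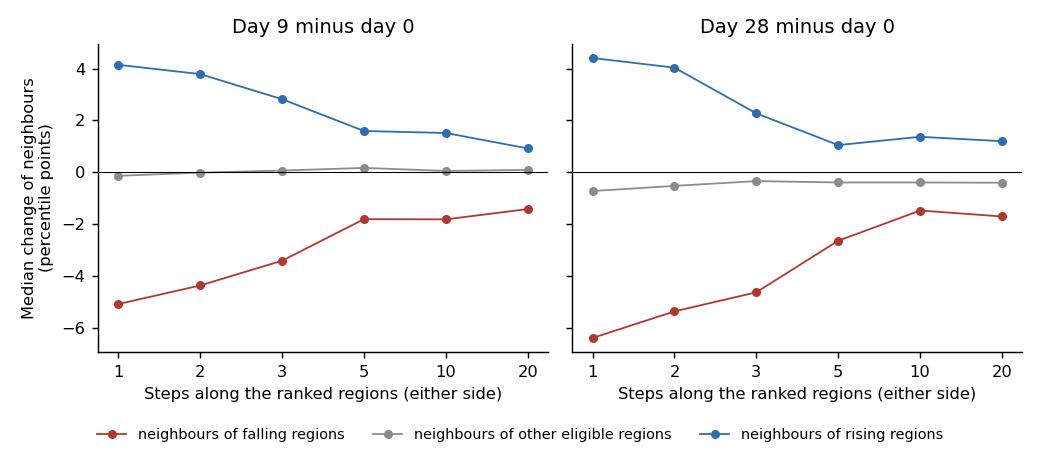
Median change of percentile since day 0 (vertical axis, percentile points; day 9 left, day 28 right) of the ranked regions lying 1 to 20 steps before or after a falling (red), other eligible (grey) or rising (blue) region (horizontal axis, unevenly spaced steps). The red points start at -5.09 and -6.40 and come nearer to 0 by 5 steps.

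The longest run lay at the proximal end of chromosome 14, where 8 consecutive eligible regions fell between 3049984 and 8490351, over 5440 kb. All 8 were isolated, with the nearest other union region 69.9 to 159.3 kb away. Their day 0 percentiles were 50.9 to 86.4 (median 71.8), those at day 9 were 4.17 to 32.5 (13.1) and those at day 28 were 0.387 to 35.1 (10.7). The strongest, at 3049984 to 3050472, scored 2266, 137.4 and 326.5 at the 3 days, and the weakest, at 4122607 to 4123082, scored 1021, 112.8 and 102.2. The day 0 peaks of the run were 425 to 543 bp wide, all under the median of 592 bp of falling regions. Chromosome 14 as a whole held few members (52), so this run is 8 of them.

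The second run, of 7 members, lay on chromosome 2 at 168818103 to 169886221, in crowded territory for the most part. It held one of the strongest members, at 169880741 to 169881425, which scored 3072, 420.3 and 561.4, and its close neighbour at 169885474 to 169886221, which scored 2454, 190.1 and 356.5. These 2 sites lay 4.76 kb apart and changed by -41.2 and -63.7 points at day 9. Another member of it, at 169674541 to 169675386, was isolated and fell much further at day 28 (score 185.7, percentile 16.1) than at day 9 (411.55, 57.7) from a day 0 score of 2862. The third run held 6 members on chromosome 5 at 26356785 to 27528037. Of these, 4 lay within 67.1 kb of each other, from 26356785 to 26423917, with day 0 scores of 1680 to 2965, day 9 scores of 197.6 to 246.7 and day 28 scores of 136 to 254.2. In that cluster all 4 sites ranked lower at day 28 (percentiles 7.19 to 26.5) than at day 9 (27.8 to 37.4).

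In windows of 4 Mb the members were spread widely. Of 534 windows with at least 10 eligible regions, 65 held no member and 21 had a member share of at least 25%, which together held 152 members. The highest shares were in thinly filled windows: 4 of 10 eligible regions on chromosome 5 at 40 to 44 Mb (40%, 16.8 to 68.7), 5 of 13 on chromosome 8 at 16 to 20 Mb (38.5%, 17.7 to 64.5) and 4 of 11 on chromosome 7 at 92 to 96 Mb (36.4%, 15.2 to 64.6). Better filled windows with high shares were picked after their values were seen. Adjacent ones on chromosome 12 held 13 of 38 at 20 to 24 Mb (34.2%, 21.2 to 50.1) and 11 of 33 at 24 to 28 Mb (33.3%, 19.8 to 50.4). Others held 11 of 33 on chromosome 2 at 168 to 172 Mb and 10 of 30 on chromosome 16 at 4 to 8 Mb (both 33.3%). The median day 9 change of all eligible regions was -21.7 and -26.03 points in the chromosome 12 windows. It was -17.0 in the chromosome 2 window and -20.8 in that of chromosome 16. Members are counted in these medians and the windows were picked for many members, so low medians are set in part in advance. Without a median that leaves the members out, whether the other eligible regions of these windows also moved down was not tested. In the next chromosome 12 window, at 28 to 32 Mb, 6 of 18 fell. There the median change of all eligible regions was -1.23 at day 9 and -19.3 at day 28.

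By chromosome, the falling share was highest on chromosome 19 (79 of 514, 15.4%, 12.5 to 18.7), chromosome 2 (196 of 1376, 14.2%, 12.5 to 16.2) and chromosome 12 (96 of 738, 13.01%, 10.8 to 15.6). It was lowest on chromosome 1 (66 of 1143, 5.77%, 4.56 to 7.28), chromosome 14 (52 of 679, 7.66%, 5.89 to 9.91) and chromosome 17 (67 of 865, 7.75%, 6.15 to 9.72). The median change of all ranked regions at day 9 was below 0 on the former 3 and above 0 on the latter 3. Falling regions are counted in these medians, so the medians and the shares are tied in part in advance. Over all chromosomes a lower median mostly went with a higher share, though not in strict order. It was -9.81 points on chromosome 19, -5.42 on chromosome 2 and -1.45 on chromosome 12, and 6.61 on chromosome 1, 8.44 on chromosome 14 and 3.75 on chromosome 17. Among the departures from that order was chromosome 4, with a share of 9.92% but a lower median (-1.90) than chromosome 12. At day 28 chromosome 17 differed from the other chromosomes with a low share, with a median of -3.85 against 5.90 on chromosome 1 and 4.35 on chromosome 14. The part of these chromosome-wide shifts in the counts was not tested. Under the alternatives of ranking, overlap and threshold the share stayed lower on chromosome 1 than on chromosomes 2 and 19.

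**Figure D5:**
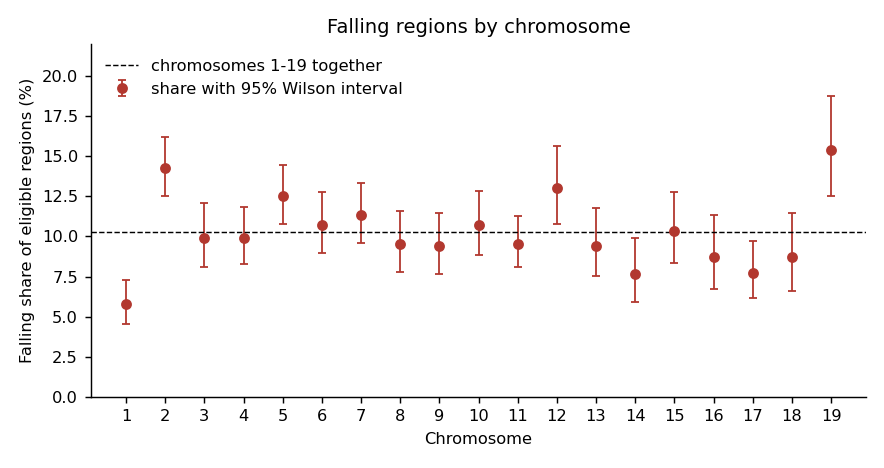
Share of eligible regions that fell (vertical axis, %) on each of chromosomes 1 to 19 (horizontal axis), with 95% Wilson intervals; the dashed line is the share over all of them, 10.3%. Chromosomes 19 (15.4%) and 2 (14.2%) stand highest and chromosome 1 (5.77%) lowest.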

How the data were processed

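CTCF ChIP-seq peaks of 1 list per day (day 0, day 9 and day 28) were used; inserts of 200 ± 50 bp had been read for 36 bases. Per the labels, 2 biological repeats were made per day and 2 input libraries at day 9; how they entered the lists is not given in the sources used here, and the input was not analysed here. The submitters' processing notes name build mm9 and 3 tools: MACS 1.4.1, Bowtie 0.12.8 and CASAVA 1.6. The deposited score of each peak is the authors' peak caller's value, taken as −10 log10 of its p-value, which is what MACS writes; depth per list is unknown.

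On chromosomes 1 to 19 the lists held 65943, 41808 and 44650 peaks. Merging, average-tie percentiles, Wilson intervals and order-statistic intervals of medians (95%) were computed in Python 3.11.15 with scipy 1.17.1 and pandas 2.3.3. The code was checked on simulated ranks with little noise and planted falls well beyond the threshold. That check cannot show how many members arose from noise. Distances run between region centres. Regions named were the 10 with the largest smaller fall, the 3 highest and lowest day 0 starts, the 3 nearest to either side of the threshold, the 3 longest runs, and the 3 windows and chromosomes at the top and, for chromosomes, the bottom of the shares. The members and lists were chosen with earlier results of these data known. The reference tables are of GRCm38, so genes, motifs and sequences were left out. Alternatives tried were other rankings, list sizes, overlaps and thresholds.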

Additional observations from a re-analysis of the deposited data

How the results depend on the processing

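Joining peaks only where they shared 50% of the shorter one moved none of the 11 genome-wide results outside its interval (1781 falling regions), and adding chromosome X gave 1849. The contrasts with other eligible regions in adjacency, isolation and day 0-only neighbours kept their direction in the 6 settings in which they were computed, which leave out the addition of chromosome X. With saturated regions kept, 4.85% of eligible regions fell; the next eligible region fell for 12.4% of members and 4.46% of others, 14.2% of isolated and 4.40% of neighboured regions fell, a day 0-only region was nearest to 39.4% of members and 27.5% of others, and the day 9 width ratio was 0.724. At equal list size 11.4% fell; the next region fell for 10.5% of others, 10.5% of neighboured regions fell, day 0-only regions were nearest to 14.03% of members and 7.73% of others, the day 28 width ratio was 0.947 and the median crowding 3 in place of 4. With percentiles over all peaks 4764 regions fell (21.9%); adjacency was 26.6% and 20.6%, isolated and neighboured shares were 26.8% and 21.6%, day 0-only neighbours 32.9% and 26.8%, width ratios 0.731 and 0.963 and crowding 5. With a fall of 35 points 827 fell (5.54%); adjacency was 14.1% and 5.03%, isolated and neighboured shares were 13.3% and 5.05%, day 0-only neighbours 38.9% and 27.9%, the day 28 width ratio 0.905 and crowding 3. Without peaks scoring under 200, 14.3% fell; adjacency was 19.2% and 13.5%, 14.02% of neighboured regions fell, day 0-only neighbours were 31.5% and 27.6%, and width ratios were 0.747 and 0.980. This setting gave 1653 members, 43.6% of them among the 1773, and 1053 of the 1773 had lost a peak to it. It retained 720 of the 1773, and the setting with saturated regions retained 682. Of the members in the latter setting 54.3% were among the 1773, and with percentiles over all peaks 36.6%. In each other setting 88.96% or more were. Agreement in direction is thus in part between different sets of regions. Of 85 alternative values, 52 moved outside the interval or, for counts, beyond 1.5 times. No paired analysis was possible because each day has 1 list. The shares by isolation and neighbour class, and the adjacency of other eligible regions, were added after the data were seen. With depth unknown and no replicate lists, a lower rank cannot be told apart from a later library that recovered these sites less well. Nor can it be told apart from a day 0 library that recovered them better.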

Other observations

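Sites saturated at day 0 could not be ranked. Of 34524 regions with 1 peak per list, 11165 were saturated at day 0, and 3689 of these were saturated at day 0 alone. In 154 of the 11165, both later scores were under 650, a limit set near the highest day 9 score of any falling region (649.96). Among the ranked regions this was not a low score at either later day.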
